A study of Mus musculus with 7 samples.

Results

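The Serpin genes of mouse medullary thymic epithelial cells (mTECs) are described here. All protein-coding rows of the deposited table with a gene name starting with Serpin were taken, which gave 61 genes of 55536 rows in all. By the letter after Serpin they form 24 Serpina genes, 26 Serpinb genes and 11 genes of other clades (c to i). RNA-seq libraries were made from EPCAM-positive mTECs sorted fresh from thymus. The genotypes compared were Cre(+) Ikzf1fl/fl Pou2f3-/- (3 libraries, Cre-positive 45, 76 and 80) and Cre(-) Ikzf1fl/fl Pou2f3-/- (4 libraries, Cre-negative 46, 48, 75 and 77). All carry the floxed gene of Ikaros, a zinc-finger transcription factor, and lack Pou2f3, the factor that tuft cells need. The series' design text says that the double-deficient cells serve to read the effect of Ikaros on expression in the absence of tuft cells. The sources used here do not give the Cre driver, the floxed exon, age or sex, nor do they state that each number is a separate animal. p-values therefore measure the spread between these libraries, which may partly be technical.

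Serpins are protease inhibitors that offer a flexible loop as bait. The protease cuts the loop and is trapped, bound to a serpin that has changed shape, so each molecule works once. Clade a serpins are mostly secreted, many of them by liver, and clade b serpins mostly stay inside cells of epithelia and blood lineages. A few serpins inhibit nothing and act as hormone carriers or chaperones. In mouse, several genes that are unique in human have become clusters of close copies, on chromosomes 1, 12 and 13. mTECs express many genes of other tissues, and some of them, the mimetic cells, resemble cells of the periphery, keratinocytes among them.

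Values are the authors' normalized counts (reads of a gene divided by a size factor per library). Recovered totals were 11383465 to 11623062 reads in Cre-positive libraries and 9815958 to 12599078 in Cre-negative libraries. Genes with at least 10 reads numbered 17169 to 18014 in Cre-positive and 19417 to 20467 in Cre-negative libraries. Ikzf1 had 1310.3, 1828.6 and 1677.5 normalized counts in Cre-positive 45, 76 and 80, and 1118.7 to 1219.0 in Cre-negative libraries, which does not check the deletion because the deleted exon is not known. Pou2f3 had 0 to 17.8 normalized counts in Cre-positive and 1.8 to 27.9 in Cre-negative libraries. Of the mTEC markers Epcam, Aire, Fezf2, Krt5, Krt8 and others, only Ccl21a was at 0 in every library. Of the 9 tested, Aire, Cldn4 and Cd80 were called lower (-0.56, -1.56 and -1.87 on the log2 scale) and Krt5 higher (0.59). Reads of Y-linked genes were found in Cre-negative 48 (a log2 sum of 11.94) and hardly elsewhere (at most 1), so a sex difference cannot be told apart from that library. The library numbers fall into 45 to 48 and 75 to 80, with 25878 to 29361 and 31682 to 36154 genes read, and both ranges hold both genotypes.

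Serpin RNA shifted towards Serpinb1a in Cre-positive mTECs. All Serpin genes together had 36121, 45093 and 57471 normalized counts in Cre-positive 45, 76 and 80, against 26281, 29361, 24175 and 19565 in Cre-negative 46, 48, 75 and 77. Serpinb1a held 56.9%, 65.2% and 65.5% of these in the Cre-positive libraries and 21.8% to 28.1% in the Cre-negative libraries. Without Serpinb1a the sums overlapped, at 15567 to 19852 in Cre-positive and 15294 to 21111 in Cre-negative libraries. Inside clade b the other genes together had 8237 to 10540 normalized counts in Cre-positive and 10236 to 15310 in Cre-negative libraries. Clade a had 5695 to 7335 and 3319 to 4002, with no overlap, and the other clades 1592 to 1977 and 1540 to 1900.

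**Figure D1:**
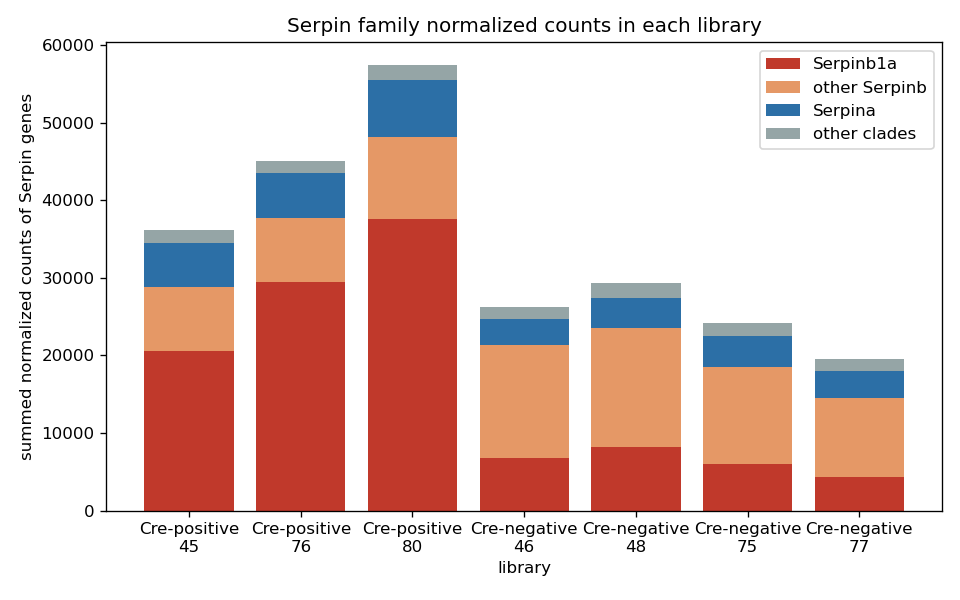
Summed normalized counts of the Serpin genes in each library (bars from 0), split into Serpinb1a, the other Serpinb genes, Serpina genes and the other clades. Serpinb1a makes up 56.9% to 65.5% of the bar in the 3 Cre-positive libraries and 21.8% to 28.1% in the 4 Cre-negative libraries.

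Of the 61 genes, 50 had a mean of at least 5 normalized counts and were tested, and 16 were called at a Benjamini-Hochberg adjusted p under 0.05 by limma. This is 32.0% of the tested members, where 13.8% of all 22878 genes tested were called. Members called higher in Cre-positive mTECs numbered 5 (4.66% of all genes were called higher) and members called lower numbered 11 (9.11% of all genes). Among those called lower, Serpinb13, Serpinb3d, Serpinb3b, Serpina3a and Serpinb9d had Cre-positive means of 0 to 3.07 normalized counts. These passed the filter only through their Cre-negative values, so they could hardly have been called in the other direction. All 16 called members had groups that did not overlap, as had 21 of the 50 tested members and 25.3% of all genes tested. The median log2 fold change was -0.59 over the tested members and -0.10 over all genes tested. By clade, 10 Serpinb genes were called lower and 1 higher of 24 tested, 4 Serpina genes higher and 1 lower of 18 tested, and none of 8 tested in the other clades. At an unadjusted p under 0.05 there were 2 of these 8, Serpinc1 and Serpinh1 (28.4% of all genes), and edgeR and DESeq2 called none of them. With scaling to library totals, all genes split into 583 called higher and 2633 lower, in place of 1066 and 2084, and the members into 5 and 12. The same sign was seen for all 16 within the libraries numbered 45 to 48 and within those numbered 75 to 80. Groups that do not overlap must give this, so it is no separate check. In bulk samples, fewer cells of a type and less RNA per cell cannot be told apart.

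**Figure D2:**
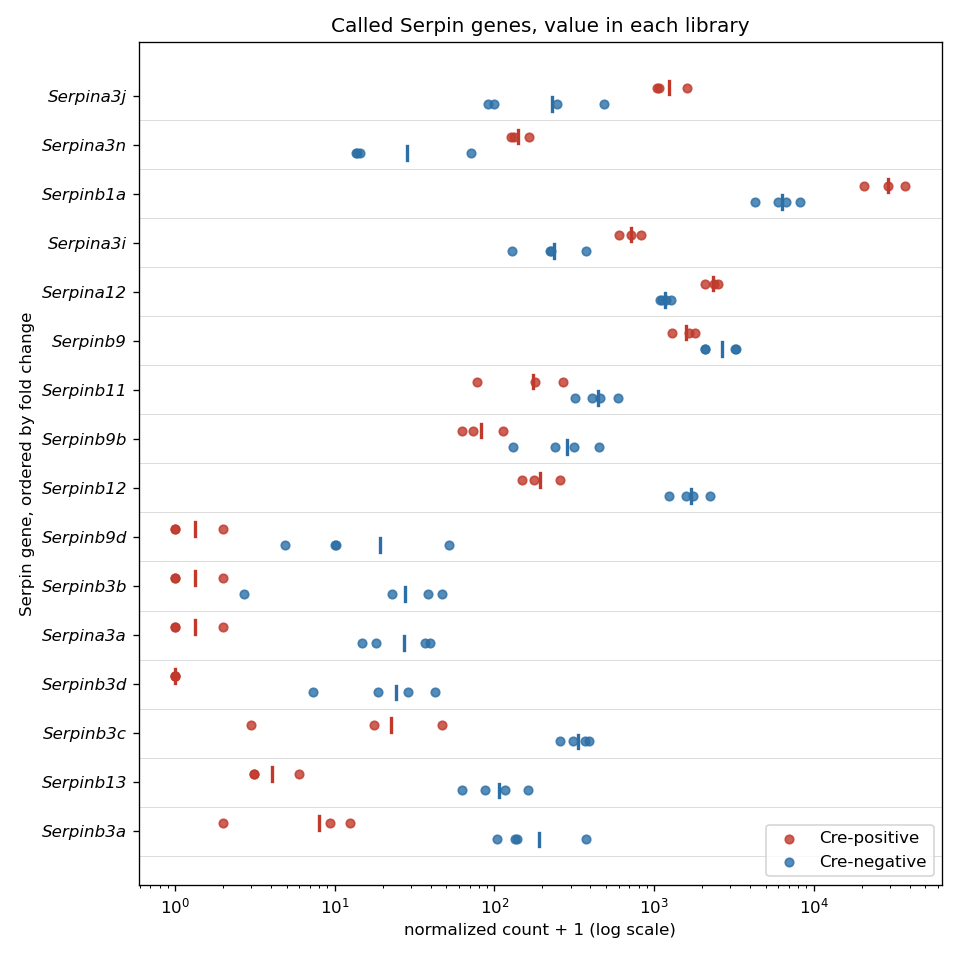
Normalized count + 1 (log axis) in every library for the 16 called Serpin genes, ordered from the highest to the lowest log2 fold change, with Cre-positive libraries above Cre-negative ones and a bar at the mean of each group. In every gene the points of the groups do not overlap, and several genes at the bottom lie at or near 0 in Cre-positive libraries.

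Serpinb1a was the most abundant Serpin per length in both genotypes, and it rose 4.63-fold in Cre-positive mTECs. It inhibits the neutrophil proteases elastase, proteinase 3 and cathepsin G. Serpinb1a (ENSMUSG00000044734, chromosome 13, 32842092 to 32851185 on GRCm38, minus strand) had 20554.9, 29420.6 and 37619.7 normalized counts in Cre-positive 45, 76 and 80, and 6747.7, 8249.3, 5960.9 and 4271.0 in Cre-negative 46, 48, 75 and 77. Every Cre-positive library was above every Cre-negative library, and Cre-positive 80 was the highest. The log2 fold change was 2.21 (SE 0.23, limma adjusted p = 1.25e-04), with 1.46 within numbers 45 to 48 and 2.72 within 75 to 80. Per kilobase of exon the mean level was 12678 normalized counts in Cre-positive and 2739 in Cre-negative mTECs. Serpinb2 was next in both, at 844 in Cre-positive and 999 in Cre-negative mTECs. Its mouse copies Serpinb1b and Serpinb1c were read at far lower levels, 58.5 to 94.5 and 3.0 to 47.7 normalized counts in Cre-positive libraries against 15.5 to 103.4 and 9.2 to 33.3 in Cre-negative libraries. Neither copy was called (adjusted p = 0.595 and 0.826). Of the 50-base stretches of the Serpinb1a transcript, 3.42% also occur in transcripts of other genes, Serpinb1c and Serpinb1b first. The unprocessed pseudogene Serpinb1-ps1 beside it, not a member, had 17.8 to 51.9 normalized counts in Cre-positive and 1.0 to 9.8 in Cre-negative libraries (adjusted p = 0.0588).

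On chromosome 1, 7 neighbouring Serpinb genes fell in Cre-positive mTECs, while the members on both sides of this block were not called. The stretch runs from 106861173 to 107610484 and holds 11 members in the order Serpinb5, Serpinb12, Serpinb13, Serpinb3a, Serpinb3d, Serpinb3b, Serpinb3c, Serpinb11, Serpinb7, Serpinb2 and Serpinb8. The genes from Serpinb12 to Serpinb11 were all called lower, where 9.11% of all genes tested were called lower. Of these, Serpinb13, Serpinb3d and Serpinb3b passed the filter only through their Cre-negative values, and the Serpinb3 copies share sequence. Serpinb10, not a member, lies after Serpinb7 and was also called lower (log2 fold change -2.23, adjusted p = 1.52e-04). The flanking genes outside the family, Vps4b before it (log2 fold change -0.17, adjusted p = 0.646) and Cdh7 after it (-2.53, adjusted p = 0.157, 2371947 bases away), were not called. The stretches on chromosomes 12 and 13 had calls in both directions.

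**Figure D3:**
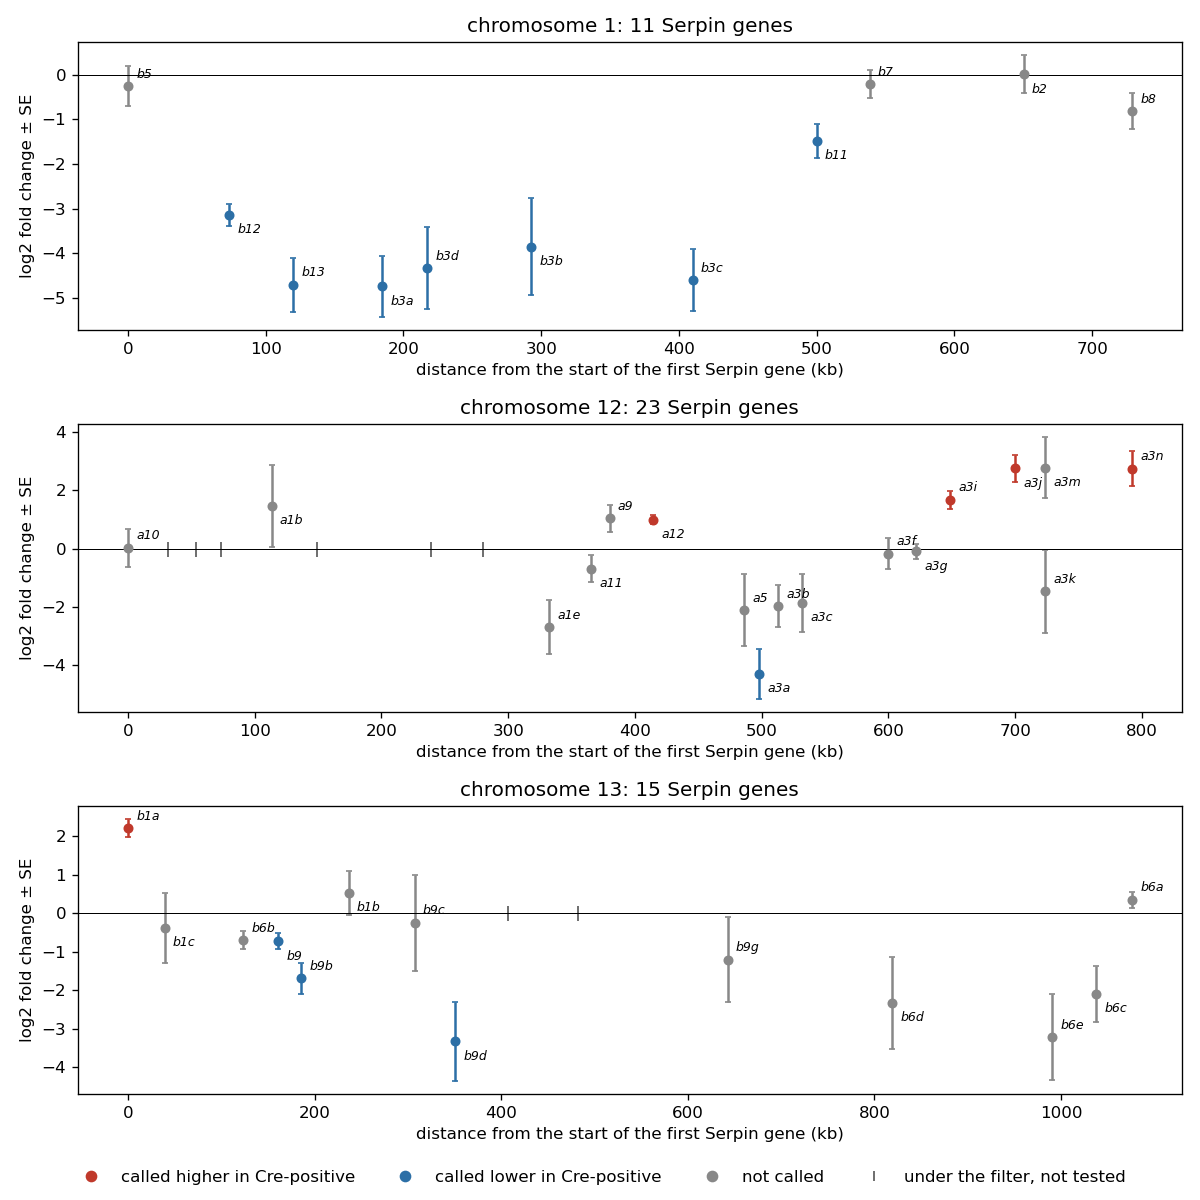
Log2 fold change (Cre-positive over Cre-negative, ± SE) of the members on chromosomes 1, 12 and 13 against the distance in kb from the start of the first member, with gene names shortened by the letters Serpin. Blue points from b12 to b11 on chromosome 1 are the 7 neighbours called lower, red points are called higher, grey points are not called, and ticks at 0 are members under the filter.

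Serpinb12, an inhibitor of trypsin-like proteases in epithelia, was the most abundant gene of the block per kilobase of exon in Cre-negative mTECs. It had 176.6, 147.2 and 256.4 normalized counts in Cre-positive 45, 76 and 80, and 1595.6, 1237.2, 2250.3 and 1759.7 in Cre-negative 46, 48, 75 and 77. All Cre-positive values lay far below the lowest Cre-negative one. The log2 fold change was -3.14 (SE 0.25, adjusted p = 1.28e-05), between -3.37 and -2.97 with any library left out. Serpinb13, which in human inhibits lysosomal cathepsins of keratinocytes, had 2.1, 5.0 and 2.1 normalized counts in Cre-positive 45, 76 and 80, and 114.8, 62.1, 160.4 and 86.8 in Cre-negative 46, 48, 75 and 77. It was almost absent from all Cre-positive libraries, at -4.71 on the log2 scale (SE 0.60, adjusted p = 3.84e-04). Serpinb11 had 266.5, 178.3 and 76.8 normalized counts in Cre-positive 45, 76 and 80, and 318.4, 591.0, 406.3 and 459.0 in Cre-negative 46, 48, 75 and 77. The gap between the groups was narrow, and its fall of 1.48 on the log2 scale (SE 0.37, adjusted p = 0.0199) was no call without Cre-negative 48 (adjusted p = 0.0638) or without Cre-positive 80 (0.0541).

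Serpinb3a to Serpinb3d are the mouse copies of the human squamous cell carcinoma antigens, serpins that inhibit lysosomal cysteine proteases and chymotrypsin-like proteases. Together the 4 copies had 54.4, 4.0 and 28.0 normalized counts in Cre-positive 45, 76 and 80, and 764.3, 423.5, 499.9 and 590.4 in Cre-negative 46, 48, 75 and 77. This sum is not changed by how reads are split among the 4, although pseudogenes share stretches with them too. Of the 50-base stretches of their transcripts, 12.2% to 15.2% occur in another gene, so the values of each copy are uncertain. The spans of Serpinb3b and Serpinb3c also overlap in the table.

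The 250 bases before the annotated starts of Serpinb3a, Serpinb3b and Serpinb3c are shown because these copies fell together and their promoters are near copies as well, with 92.5% to 95.4% identity over 216 to 240 aligned bases. Serpinb3d fell too, but its window is no near copy of these, with 8 to 55 aligned bases at 65.5% to 87.5% identity. The windows shown are RefSeq sequences on GRCm38.p6, 5′ to 3′ on the minus strand, at chr1:107052304-107052553, chr1:107161115-107161364 and chr1:107278372-107278621. Capitals mark TATAAA, found 65, 41 and 31 bases before the annotated start.
Serpinb3a: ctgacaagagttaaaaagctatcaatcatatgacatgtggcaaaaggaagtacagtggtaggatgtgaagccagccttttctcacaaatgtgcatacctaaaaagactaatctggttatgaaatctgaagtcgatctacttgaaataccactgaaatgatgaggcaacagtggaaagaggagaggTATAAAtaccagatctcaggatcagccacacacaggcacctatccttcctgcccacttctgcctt
Serpinb3b: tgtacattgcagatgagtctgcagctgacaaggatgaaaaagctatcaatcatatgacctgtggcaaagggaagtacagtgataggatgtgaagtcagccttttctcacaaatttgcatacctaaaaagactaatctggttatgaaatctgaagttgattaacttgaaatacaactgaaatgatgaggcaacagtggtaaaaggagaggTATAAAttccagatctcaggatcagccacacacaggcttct
Serpinb3c: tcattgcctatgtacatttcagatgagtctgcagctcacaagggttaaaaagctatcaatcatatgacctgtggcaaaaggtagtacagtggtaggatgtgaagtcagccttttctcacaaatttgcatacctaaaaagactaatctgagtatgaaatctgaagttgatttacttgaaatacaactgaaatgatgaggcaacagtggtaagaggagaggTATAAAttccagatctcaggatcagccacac
The shared run around TATAAA lies at a different distance from each annotated start, so the 3 windows are shifted copies of one promoter. TATAAA on either strand was present in 7 of 11 windows of members called lower and in none of 4 windows of members called higher. It was present in 27.9% of Serpin windows, 33.3% of Serpinb windows and 12.4% of all 32851 promoter windows of this length. The 7 windows are those of Serpinb3a to Serpinb3d and Serpina3a, and separate ones for different starts of Serpinb12. Close copies are not independent, windows of the same gene share its call, and a match of letters is a description only.

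Each of these copies was called lower. Serpinb3a had 8.4, 1.0 and 11.4 normalized counts in Cre-positive 45, 76 and 80, and 376.3, 103.4, 137.8 and 134.4 in Cre-negative 46, 48, 75 and 77 (log2 fold change -4.74, SE 0.69, adjusted p = 8.75e-04, or -3.93 without Cre-positive 76). Serpinb3c had 46, 2.0 and 16.6 normalized counts in Cre-positive 45, 76 and 80, and 368.7, 255.1, 309.9 and 392.9 in Cre-negative 46, 48, 75 and 77. Its log2 fold change was -4.60 (SE 0.70, adjusted p = 0.00116), -5.50 without Cre-positive 45 and -3.51 without Cre-positive 76. The Cre-positive libraries differed from each other in these 2 genes, with Cre-positive 76 the lowest in both, yet all stayed below every Cre-negative library.
Serpinb3d was at 0 reads in all 3 Cre-positive libraries, whereas Cre-negative 46, 48, 75 and 77 had 17.6, 27.6, 6.3 and 41.4 normalized counts of it. Against 3 reads over the Cre-positive libraries it was at least 21.8-fold lower (adjusted p = 0.00863). Serpinb3b had 0, 1.0 and 0 normalized counts in Cre-positive 45, 76 and 80, and 1.7, 37.4, 45.9 and 21.7 in Cre-negative 46, 48, 75 and 77. Its only Cre-positive read, against 112 reads in Cre-negative libraries, gives a ratio of 76.3-fold lower, with an exact 95% counting interval of 13.4 to 3039. The limma log2 fold changes of -4.33 for Serpinb3d and -3.85 for Serpinb3b depend on the added count, and edgeR gave -7.58 and -5.86. Leaving out any library except Cre-negative 46 ended the call of Serpinb3b (adjusted p = 0.0343 with all libraries, 0.0548 to 0.0924 without one), and without Cre-negative 46 its log2 fold change was -4.77.

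The other 4 members of the stretch were not called. Serpinb2, which inhibits plasminogen activators in its secreted form, had 2011.5, 1678.4 and 2260.9 normalized counts in Cre-positive 45, 76 and 80, and 2965.7, 4137.0, 1491.8 and 789.9 in Cre-negative 46, 48, 75 and 77. The Cre-negative libraries spread widely and enclosed the Cre-positive ones (log2 fold change 0.01, SE 0.42, adjusted p = 0.989). Serpinb5 (maspin), Serpinb7 and Serpinb8 were not called, at -0.25, -0.21 and -0.81 on the log2 scale (adjusted p = 0.760, 0.711 and 0.217). Serpinb10, listed as a polymorphic pseudogene and so not a member, overlaps Serpinb2 in position. It had 116.0, 192.3 and 134.9 normalized counts in Cre-positive 45, 76 and 80 and 547.7 to 750.6 in Cre-negative libraries (log2 fold change -2.23, adjusted p = 1.52e-04).

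Several of these Serpinb genes are also used in keratinocytes, and 8 of 16 keratinocyte genes fell as well. None of the 16 was called higher, and the median of their log2 fold changes was -1.58, where 9.11% of all genes tested were called lower, 4.66% higher and the median was -0.10. The 8 called lower were Ivl, Krt78, Krt77, Krt1, Dsg1a, Flg, Grhl3 and Grhl1. Of these, Ivl had a Cre-positive mean of 1.67 normalized counts and passed the filter only through its Cre-negative values. The normalized counts of all 16 summed to 2055 to 3261 in Cre-positive and 5070 to 6916 in Cre-negative libraries. Dsg1a fell by 1.92 and Krt77 by 2.92 on the log2 scale (adjusted p = 0.0003 and 1.64e-04), whereas Krt10 had a log2 fold change of 0.24 (adjusted p = 0.593). The part of keratinocyte-type cells in the Serpinb values was not tested.

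On chromosome 13, 3 of 5 tested Serpinb9 genes fell and none of 5 Serpinb6 genes was called, a contrast between the groups that was not tested. Over all genes tested, 9.11% were called lower. Serpinb6c and Serpinb6e had larger falls (-2.10 and -3.22 on the log2 scale) than Serpinb9 but missed the threshold (adjusted p = 0.0772 and 0.0762). Serpinb9d passed the filter only through its Cre-negative values. The stretch spans 32842092 to 34002794 with 15 members, of which 13 were tested, 3 called lower and 1, Serpinb1a, called higher. Serpinb9, the inhibitor of granzyme B that protects cells from cytotoxic granules, had 1803.6, 1292.8 and 1656.7 normalized counts in Cre-positive 45, 76 and 80, and 3202.1, 3251.5, 2099.9 and 2080.2 in Cre-negative 46, 48, 75 and 77. The groups were near each other, at -0.73 on the log2 scale (SE 0.21, adjusted p = 0.0347). The call of Serpinb9 ended when Cre-negative 46, Cre-negative 48, Cre-positive 76 or Cre-positive 80 was left out (adjusted p = 0.0631 to 0.134).
Serpinb9b, a rodent serpin reported to inhibit granzyme M, had 61.7, 72.1 and 112.1 normalized counts in Cre-positive 45, 76 and 80, and 315.1, 130.0, 454.0 and 239.9 in Cre-negative 46, 48, 75 and 77. All Cre-positive values were under the lowest Cre-negative value. The log2 fold change was -1.69 (SE 0.40, adjusted p = 0.0151), and it was no call without Cre-negative 46 (0.0526) or Cre-positive 45 (0.0514). Serpinb9d had 0, 0 and 1.0 normalized counts in Cre-positive 45, 76 and 80, and 9.2, 3.9, 9.0 and 50.7 in Cre-negative 46, 48, 75 and 77. Its 1 read against 74 gives a ratio of 50.4-fold lower, with an exact 95% counting interval of 8.77 to 2017. It was barely called (adjusted p = 0.0488), and not without any library other than Cre-negative 48 (0.0691 to 0.131). Without Cre-negative 77, which held most of its reads, its log2 fold change was -2.66 in place of -3.33. Of its 50-base stretches, 30.8% occur in other genes, Serpinb9e first.

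Serpinb6a and Serpinb6b, intracellular inhibitors of which the first inhibits cathepsin G, were among the 6 members not called that had the highest mean normalized counts. Serpinb6a had 2333.3, 3482.9 and 4293.3 normalized counts in Cre-positive 45, 76 and 80, and 2607.1, 2830.9, 2802.5 and 2049.2 in Cre-negative 46, 48, 75 and 77 (log2 fold change 0.36, SE 0.21, adjusted p = 0.285). Serpinb6b had 1042.8, 603.9 and 1109.7 normalized counts in Cre-positive 45, 76 and 80, and 1824.4, 1321.9, 1554.9 and 1164.2 in Cre-negative 46, 48, 75 and 77. Serpinb6b did not overlap between the groups, but its log2 fold change of -0.70 (SE 0.23) missed the threshold (adjusted p = 0.0650), and passed it with scaling to library totals (0.0152). Serpinb6c, Serpinb6d and Serpinb6e had log2 fold changes of -2.10, -2.33 and -3.22 with standard errors of 0.73 to 1.20, and Serpinb6e alone ran from 0 to 88.2 normalized counts among Cre-positive libraries. Serpinb6d had 0 to 1.0 normalized counts in Cre-positive and 0.9 to 22.7 in Cre-negative libraries. The authors' deposited table calls Serpinb6d lower in Cre-positive mTECs (authors' adjusted p = 0.0475). With 1 library left out, Serpinb6c ranged from -2.69 (without Cre-positive 80) to -0.96 (without Cre-positive 76), and Serpinb6e from -4.51 (without Cre-positive 80) to -1.27 (without Cre-positive 45). Without Cre-positive 80, Serpinb6b, Serpinb6c and Serpinb6e were called lower (adjusted p = 0.0493, 0.0446 and 0.0166), and Serpinb6e also with a term for the number range (0.0234) or with no filter (0.0407). Serpinb9c had 0 to 16.0 normalized counts in Cre-positive and 0 to 17.6 in Cre-negative libraries and Serpinb9g had 1.0 to 5.2 and 1.8 to 35.2, and neither was called. Within this stretch Nqo2, a quinone reductase gene that is no serpin, was called higher (log2 fold change 0.85, adjusted p = 0.0120). Ripk1 there and the flanking genes Wrnip1 and Bphl were not called (adjusted p = 0.449, 0.281 and 0.0522).

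**Figure D4:**
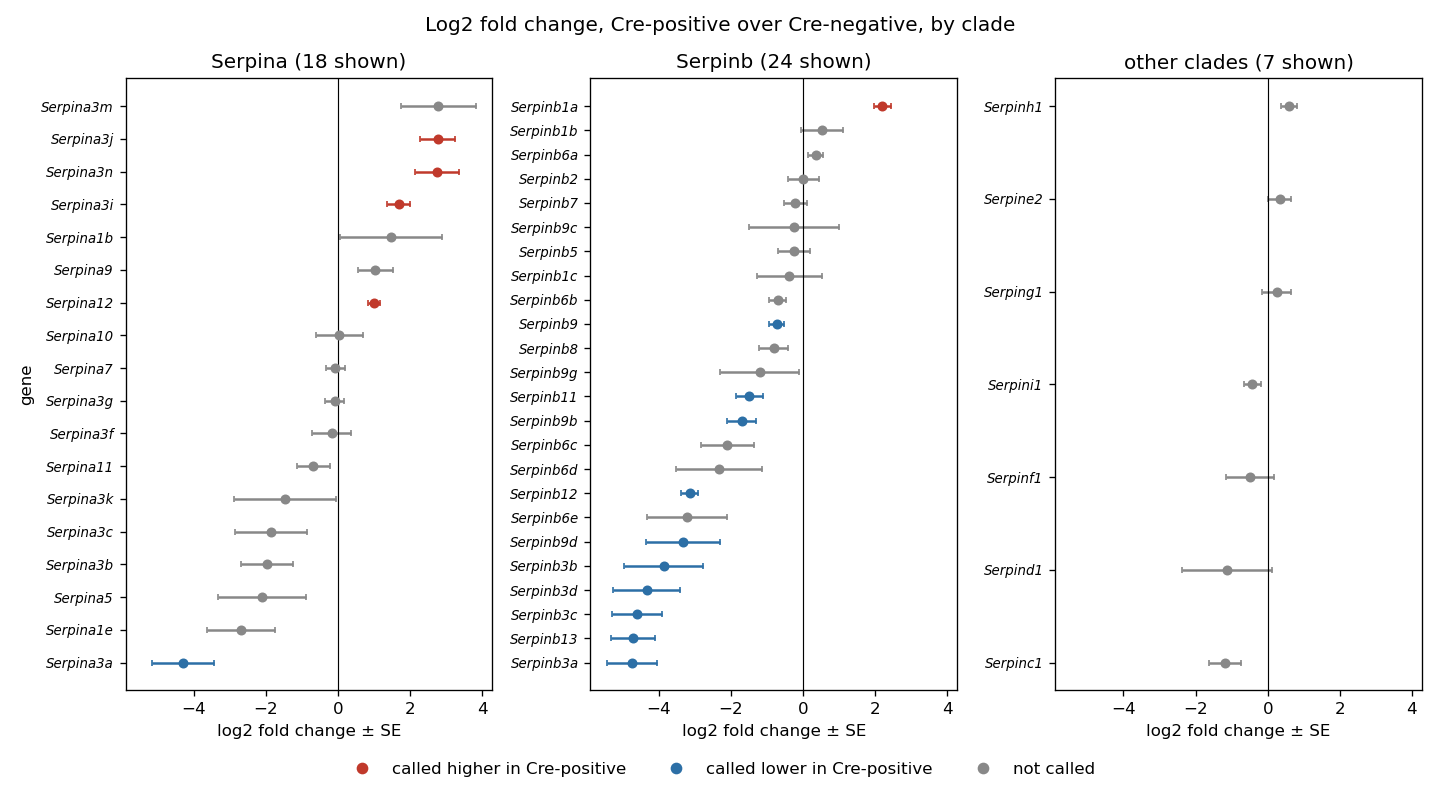
Log2 fold change (Cre-positive over Cre-negative, ± SE) of the tested members by clade, with called genes in red (higher) and blue (lower). Serpina points lie on both sides of 0, 20 of the 24 Serpinb points lie below 0, and none of the 7 points shown of the other clades is called.

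In clade a, genes at the far end of the chromosome 12 cluster rose while Serpina3a fell. The cluster spans 103614786 to 104414329 with 23 members, of which 17 were tested. Its flanking genes Ppp4r4 and Dicer1 were not called (adjusted p = 0.256 and 0.335). Its Serpina3 genes are mouse copies related to the human antichymotrypsin gene, an acute phase inhibitor of chymotrypsin-like proteases. Of 10 Serpina3 genes tested, Serpina3i, Serpina3j and Serpina3n were called higher and Serpina3a was called lower. Over all genes tested, 4.66% were called higher and 9.11% lower. Serpina3a passed the filter only through its Cre-negative values, so it could hardly have been called higher. Together the Serpina3 genes had 2688.7, 2766.9 and 3729.7 normalized counts in Cre-positive 45, 76 and 80, and 1300.5, 1425.3, 1972.0 and 1578.8 in Cre-negative 46, 48, 75 and 77.

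Serpina3j and Serpina3n had nearly the same log2 fold change. Serpina3j had 1050.2, 1079.5 and 1603.8 normalized counts in Cre-positive 45, 76 and 80, and 244.7, 481.7, 98.2 and 89.9 in Cre-negative 46, 48, 75 and 77. The Cre-negative libraries numbered 46 and 48 were above 75 and 77, and all were well under the Cre-positive ones. The log2 fold change was 2.76 (SE 0.47, adjusted p = 0.00245), with 1.61 within numbers 45 to 48 and 3.79 within 75 to 80. It was 3.38 with a term for the Y-linked sum.
Serpina3i had 601.9, 712.0 and 827.3 normalized counts in Cre-positive 45, 76 and 80, and 127.4, 220.6, 372.1 and 225.4 in Cre-negative 46, 48, 75 and 77 (log2 fold change 1.68, SE 0.31, adjusted p = 0.00386). Serpina3n, which inhibits granzyme B and leukocyte elastase in mouse, had 164.1, 126.2 and 130.8 normalized counts in Cre-positive 45, 76 and 80, and 13.4, 12.8, 12.6 and 70.3 in Cre-negative 46, 48, 75 and 77. Cre-negative 77 stood apart from the other Cre-negative libraries in Serpina3n but stayed under all Cre-positive ones. Its log2 fold change was 2.74 (SE 0.61, adjusted p = 0.0102), or 3.33 without Cre-negative 77, and it was no call with a term for the Y-linked sum (0.0538). The transcribed pseudogene Serpina3h between Serpina3g and Serpina3i, not a member, had 281.1, 289.4 and 328.0 normalized counts in Cre-positive 45, 76 and 80 and 38.4 to 96.2 in Cre-negative libraries (log2 fold change 2.38, adjusted p = 0.00125). Serpina3h shares 9.21% of the 50-base stretches of Serpina3i, so part of their reads may be exchanged.

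Serpina3a had 0, 0 and 1.0 normalized counts in Cre-positive 45, 76 and 80, and 36.0, 13.8, 17.1 and 38.3 in Cre-negative 46, 48, 75 and 77. It was all but absent from Cre-positive libraries. Its 1 read against 113 gives a ratio of 77-fold lower, with an exact 95% counting interval of 13.5 to 3066 (adjusted p = 0.00557). The limma log2 fold change of -4.31 depends on the added count, and edgeR gave -5.83. Serpina3b and Serpina3c beside it were not called, at -1.97 and -1.86 on the log2 scale (adjusted p = 0.0931 and 0.242). Serpina3g, an inhibitor of lysosomal cathepsins in lymphoid cells of the mouse, had 813.0, 707.0 and 1107.6 normalized counts in Cre-positive 45, 76 and 80, and 796.1, 615.6, 1358.5 and 1073.2 in Cre-negative 46, 48, 75 and 77. These groups overlapped fully (log2 fold change -0.10, SE 0.26, adjusted p = 0.853), as did those of Serpina3f (adjusted p = 0.871). Serpina3k and Serpina3m overlap in position, and each rested on a few libraries. Serpina3m had 32.4, 16.0 and 3.1 normalized counts in Cre-positive 45, 76 and 80 and at most 3.1 in Cre-negative libraries (adjusted p = 0.0974). Serpina3k was read in 1 of the Cre-positive libraries, Cre-positive 76 (78.1 normalized counts), against 4.9 to 31.0 in Cre-negative libraries.

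The 250 bases before the starts of Serpina3n and Serpina3c are shown because they are near copies (92.7% identity over 247 aligned bases). Serpina3n had a log2 fold change of 2.74 (called) and Serpina3c of -1.86 (SE 0.99, not called). Serpina3c was low, at 0 to 4.2 normalized counts in Cre-positive and 3.1 to 20.7 in Cre-negative libraries, so its sign is uncertain. The window of Serpina3i is shown for its 3 matches to TGGGAA, the core letters of the Ikaros motif, the most among the 61 Serpin windows. Of all windows, 0.204% hold 3 or more, a share that does not allow for this picking. The sequences shown are RefSeq sequences on GRCm38.p6, 5′ to 3′ in the direction of the gene, at chr12:104406458-104406707 (plus strand), chr12:104153873-104154122 (minus strand) and chr12:104262872-104263121 (plus strand). Capitals mark TGGGAA or its reverse complement, TTCNNNGAA, a motif type of STAT factors, and TATAAA.
Serpina3n: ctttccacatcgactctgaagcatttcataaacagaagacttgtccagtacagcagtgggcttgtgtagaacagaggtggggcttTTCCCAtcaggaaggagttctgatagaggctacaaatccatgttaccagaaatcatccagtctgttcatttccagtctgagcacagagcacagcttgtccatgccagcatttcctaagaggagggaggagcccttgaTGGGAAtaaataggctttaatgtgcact
Serpina3c: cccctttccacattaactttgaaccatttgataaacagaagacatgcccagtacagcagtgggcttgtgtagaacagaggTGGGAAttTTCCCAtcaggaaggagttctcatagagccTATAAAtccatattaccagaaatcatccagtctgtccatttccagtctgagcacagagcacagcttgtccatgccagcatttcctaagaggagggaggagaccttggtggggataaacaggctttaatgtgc
Serpina3i: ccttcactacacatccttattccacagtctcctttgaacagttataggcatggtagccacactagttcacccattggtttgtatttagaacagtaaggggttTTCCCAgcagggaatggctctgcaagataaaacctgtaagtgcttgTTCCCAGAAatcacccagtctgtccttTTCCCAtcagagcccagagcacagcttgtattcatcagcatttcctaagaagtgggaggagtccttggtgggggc
In Serpina3i the middle TTCCCA overlaps the TTCNNNGAA match. TGGGAA on either strand was found in 15 of 61 Serpin windows (24.6%) and in 21.6% of all windows. TTCNNNGAA was found in 7 of 22 Serpina windows (31.8%) and in 7.02% of all windows, though several of these windows are copies of each other. The windows of Serpina3j and Serpina12 hold none of the 3 motifs, which says only that these letters are not there.

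Serpina12 (vaspin, a secreted serpin that in human inhibits kallikrein 7) rose about evenly in the Cre-positive libraries. It had 2087.8, 2386.4 and 2524.5 normalized counts in Cre-positive 45, 76 and 80, and 1269.6, 1120.9, 1083.7 and 1195.2 in Cre-negative 46, 48, 75 and 77. Both groups were tight, and the ratio of means was 2.0 (log2 fold change 1.0, SE 0.16, adjusted p = 0.00138). No left-out library ended the call. Klk7, the gene of that kallikrein, had 119 ± 66.3 normalized counts in Cre-positive mTECs and 408 ± 93.3 in Cre-negative mTECs (SD, n = 3 and 4, limma adjusted p = 0.00640). Serpina9, next to Serpina12, had a log2 fold change of 1.04 and was not called (adjusted p = 0.171).

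The antitrypsin genes were low in mTECs of both genotypes, and the thyroxine carrier Serpina7 was not. The antitrypsin genes Serpina1a, Serpina1c, Serpina1d and Serpina1f were under the filter, and Serpina1b and Serpina1e had at most 43.6 and 6.2 normalized counts in Cre-positive libraries and at most 10.8 and 45.5 in Cre-negative libraries. Serpina1e did not overlap between the groups, but its log2 fold change of -2.69 (SE 0.94) was not called (adjusted p = 0.0766). It was called with a term for the number range (0.0392), and its log2 fold change was -1.83 without Cre-positive 45. These copies share 35.6% to 74.2% of their 50-base stretches with other genes, Serpina1f aside, so their reads cannot be assigned firmly. Serpina7, the thyroxine carrier of plasma and the member on the X chromosome, had 625.9, 519.7 and 799.3 normalized counts in Cre-positive 45, 76 and 80, and 549.7, 1080.5, 636.0 and 546.9 in Cre-negative 46, 48, 75 and 77 (log2 fold change -0.08, SE 0.26, adjusted p = 0.879). The groups overlapped, with Cre-negative 48 the highest. Serpina5, Serpina10 and Serpina11 were not called (adjusted p = 0.286, 0.983 and 0.359). In the list of secreted hepatocyte proteins, where 9.11% lower and 4.66% higher is the share over all genes, 4 of 15 tested genes (Apoa2, Ambp, Itih3 and Itih4) were called lower and 1, Crp, higher (1723 ± 234 normalized counts in Cre-positive and 239 ± 50.4 in Cre-negative mTECs, SD, n = 3 and 4).

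None of the serpins of the other clades was called. Serpini1 (neuroserpin, which inhibits tissue plasminogen activator in neurons) had 414.8, 262.4 and 389.3 normalized counts in Cre-positive 45, 76 and 80, and 510.4, 533.9, 461.2 and 381.5 in Cre-negative 46, 48, 75 and 77 (log2 fold change -0.42, SE 0.23, adjusted p = 0.257). The groups overlapped slightly. Serpinh1, a collagen chaperone of the endoplasmic reticulum that inhibits no protease, had 455.6 to 575.1 normalized counts in Cre-positive and 262.0 to 397.0 in Cre-negative libraries. Its groups did not overlap, but the log2 fold change of 0.60 (SE 0.22) was not called (adjusted p = 0.0920). Among its collagen clients Col1a1, Col1a2 and Col3a1 fell, with log2 fold changes of -2.63, -2.53 and -3.94, and Col4a1 rose by 0.96 (adjusted p = 0.0330, 0.00787, 0.00350 and 0.00143). Serpine2, an inhibitor of thrombin and plasminogen activators, had a log2 fold change of 0.33. Serping1, the inhibitor of complement C1 proteases, had 0.25, and Serpinf1, a secreted factor without inhibitory activity, had -0.50. Serpinc1 (antithrombin) and Serpind1 (heparin cofactor) had -1.19 and -1.13, with standard errors of 0.44 and 1.23. Serpind1 was at 0.32 without Cre-positive 80 and at -0.25 without Cre-negative 77. Serpinc1 was called only without Cre-positive 80 (adjusted p = 0.0340).

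The 11 members under the filter were Serpina1a, Serpina1c, Serpina1d, Serpina1f, Serpina6, Serpina16, Serpinb9e, Serpinb9f, Serpine3, Serpinf2 and Serpini2. They had at most 18 reads in any library and at most 25 reads over all 7. Members with at least 10 reads numbered 33 to 35 in Cre-positive and 43 to 47 in Cre-negative libraries. With so few reads a difference was not detectable at this depth.

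Of 16 tested leukocyte and lysosomal proteases that serpins inhibit, 1 was called higher and 2 lower, a share near the 13.8% of all genes tested, and the median of the log2 fold changes was -0.90. Ctsl, a lysosomal cysteine protease, had 12952 ± 3051 normalized counts in Cre-positive mTECs and 4664 ± 829 in Cre-negative mTECs (SD, n = 3 and 4, log2 fold change 1.46, limma adjusted p = 3.58e-04). Gzmb, the granzyme that Serpinb9 inhibits, had 13.6, 0 and 1.0 normalized counts in Cre-positive 45, 76 and 80, and 87.2, 95.5, 106.3 and 294.7 in Cre-negative 46, 48, 75 and 77. Prtn3, a neutrophil protease that Serpinb1a inhibits, had 2.0 to 2.1 normalized counts in Cre-positive and 9.8 to 54.1 in Cre-negative libraries. Both fell (adjusted p = 0.00156 and 0.0258), and Elane and Ctsg, also inhibited by Serpinb1a, were not called (adjusted p = 0.742 and 0.0990). Gzmb and Prtn3 passed the filter only through their Cre-negative values.
Of 19 tested proteases of plasma and the skin, Klk5 and Klk7 were called lower and C1s1 higher, again a share near 13.8%, with a median log2 fold change of -0.53. Klk5, which starts the kallikrein cascade of shedding skin, fell by 5.52 on the log2 scale (adjusted p = 0.00125). C1s1, a complement protease that Serping1 inhibits, rose by 1.48 (adjusted p = 0.0357). Of 22 tested cofactors, clearance receptors and clients, 7 were called lower and 1 higher (median -0.47), against 9.11% lower and 4.66% higher over all genes tested. The receptors Lrp1, Lrp2 and Lrp8, which take up serpin complexes or their relatives, fell, at -1.37, -2.50 and -1.89 on the log2 scale (adjusted p = 0.0203, 0.0166 and 0.0217). Vtn, an adhesion protein of plasma and matrix, fell by 3.50 (adjusted p = 0.0393). It had 0 to 2.0 normalized counts in Cre-positive and 4.9 to 50.4 in Cre-negative libraries. Vtn passed the filter only through its Cre-negative values, so it could hardly have been called higher.

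Markers of other cells that the sort could hold were read in both genotypes. Macrophage markers summed to 7740 to 11644 normalized counts in Cre-positive and 5725 to 7402 in Cre-negative libraries. Most of each sum was Lyz2 (6926 to 11147 and 4492 to 6130), which was called higher. Adgre1 and Itgam were called lower (-2.91 and -2.30 on the log2 scale). The 5 macrophage markers not called had log2 fold changes of -0.79 to -0.06. Dendritic cell markers summed to 349 to 477 in Cre-positive and 545 to 558 in Cre-negative libraries, and none of the 6 was called. Sums of thymocyte (489 to 2179 and 648 to 1276), B cell (240 to 476 and 333 to 451), fibroblast (1324 to 1733 and 1358 to 1848) and endothelial markers (286 to 408 and 337 to 429) overlapped between Cre-positive and Cre-negative libraries. Of these, Pax5 of the B cell markers (-1.64 on the log2 scale) and the collagen genes Col1a1, Col1a2 and Col3a1 of the 8 fibroblast markers were called lower. Markers listed as cortical epithelial, Foxn1 among them, summed to 6612 to 11215 in Cre-positive and 13303 to 16368 in Cre-negative libraries. Most of each sum was Ccl25 (4887 to 8344 and 8951 to 12817), and Ccl25 and Foxn1 were called lower. The 4 others, Psmb11, Prss16, Ly75 and Cxcl12, were not called (adjusted p = 0.141 to 0.563). The part of these cells in the Serpin values was not tested.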

How the data were processed

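RNA was measured in 7 libraries of sorted mTECs, 3 Cre-positive and 4 Cre-negative. The authors aligned reads with STAR 2.7.9a and used DESeq2, and named build GRCm39, per the submitters' processing notes. Which tool counted the reads, and whether by strand, is not given in the sources used here. Normalized counts are a signal the authors deposited, gene counts divided by a size factor per library and rounded to 1 decimal. The deposited table also holds the authors' log2 fold change with its adjusted p-value, and 7 per-sample columns not used here. Table coordinates equal GENCODE M21 (GRCm38) for 61 of the 61 members found there, so positions are given on GRCm38.

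Whole reads were recovered through the deposited unrounded mean (100% of values whole within 0.0501 normalized counts, in each library). A mean of 5 normalized counts or more was required (22878 genes, with 32658 left out). On log2(normalized count + 1), limma was fitted with its trend option and a term for genotype alone. Fold changes are on that scale, which can understate those of genes near 0 in a whole group. In genes uneven among libraries of a group it can also overstate a change or turn its sign. Serpinb6e was at -3.22 with limma and -1.78 with edgeR, and Serpina3k at -1.47 with limma and 0.89 with edgeR. Benjamini-Hochberg adjustment ran over all genes tested, and every adjusted p is from limma unless edgeR or DESeq2 is named. Both ran on recovered reads as alternatives. The fits were tested on simulated reads. Shared stretches were counted over 50 bases of each member's longest GENCODE M21 transcript, and levels per kilobase use exon lengths of the same release. RefSeq promoter windows matched 52 of the 61 members and 14 of the 16 called (not Serpinb1a and Serpinb13). Counting intervals and bounds cover counting error only, as no molecular identifiers are given in the sources used here.

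The values of 1 tested member, which stays in the counts, sums and fits, are not reported here. The members and lists were chosen with earlier results of these data known. Values in every library are given for each called member and for the 6 members not called with the highest mean normalized count, and from the other lists called genes are named first. Python 3.11.15 with pandas 2.3.3, numpy 2.4.6 and matplotlib 3.10.9 was used beside R 4.3.3, with DESeq2 1.42.0, edgeR 4.0.16 and limma 3.58.1.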

Additional observations from a re-analysis of the deposited data

Results flagged for a closer look

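Among the 50 tested members, 8 had a Cre-negative library far from the other 3 by Dixon's test at the 95% level, on unlogged normalized counts. Its rate of about 1 in 20 groups by chance holds for normally distributed values. Unlogged counts need not be so distributed, so the 8 cannot be set against that rate. Cre-negative 77 was apart for Serpina3n (70.3 normalized counts), Serpinb9d (50.7) and Serpind1 (100.3). Cre-negative 48 was apart for Serpina9 (132.0) and Serpina7 (1080.5), Cre-negative 46 for Serpinb3a (376.3) and Serpinb9g (35.2), and Cre-negative 75 for Serpina11 (195.5). All 8 were the highest of their group, and unlogged counts can run further up than down. In Serpina3n, which was called higher, the library that stands apart lies nearest to the Cre-positive ones. In Serpinb3a and Serpinb9d, which were called lower, it lies farthest from them.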

How the results depend on the processing

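Of the 16 calls, 11 held under all alternatives that kept every library, apart from Serpinb3b, Serpinb9d, Serpina3n, Serpinb9 and Serpinb11, and no call changed sign. No filter on low values lost Serpinb3b and Serpinb9d (adjusted p = 0.0511 and 0.0857), and edgeR did not test Serpinb9d. A term for the Y-linked sum, carried by Cre-negative 48, left 11 calls, with 7 members lower, 7 Serpinb members and 1909 genes in all, and lost Serpina3n, Serpinb11, Serpinb3b, Serpinb9 and Serpinb9d. A term for the number range kept all 16 calls and added Serpina1e and Serpinb6e. DESeq2 called 8 Serpina members, adding Serpina1e, Serpina3b and Serpina3m. Library total scaling moved the median of all genes to -0.29 and kept all 16 calls. With 1 library left out, 12 to 14 of the 16 calls held. The counts then ran from 1969 to 2702 for all genes, 5 to 5 for members higher, 8 to 11 for members lower, 5 to 5 for Serpina, 8 to 10 for Serpinb and 0 to 1 for the other clades. The authors' deposited table calls 18 members, 14 of them called here, and has no adjusted p for the other 2 called here. The 4 called there and not here were Serpina1e, Serpina3b, Serpina3m and Serpinb6d. No paired analysis was possible because the genotypes share no library numbers. Depth limits the 11 members under the filter and the copies near 0 reads.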
